A study of Mus musculus with 9 samples.

Results

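The expression of 10 genes of melanin synthesis and of the pigment epithelium was followed in every library of the P28 mouse retina. The 10 genes were Tyr, Tyrp1, Dct, Pmel, Mlana, Slc45a2, Mitf, Ttr, Best1 and Slc6a13, and they were found by symbol among the 22337 genes of the deposited table. Each symbol matched a single row. Tyr, Tyrp1, Dct, Pmel and Ttr rose and fell together from library to library. Mlana followed them less closely. Rpe65, Rdh5 and Lrat, retinoid genes of the pigment epithelium picked after their values were seen, had a similar course. Rlbp1, Rrh and Rdh10, other retinoid genes, had another order. Slc6a13 differed between NS-treated rd10 and WT retina in every alternative setting tried, but was not called between MSC-EVs-treated rd10 and WT retina. Mitf, Best1 and Slc45a2 did not follow the course of Dct.

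RNA was taken from whole retinas at P28, enriched for poly(A) and sequenced. WT retinas came from non-treated C57 BL/6J mice. Rd10 mice carry a homozygous missense mutation in Pde6b, the beta subunit of the rod phosphodiesterase, and lose their rods in the first postnatal weeks. Rd10 littermates received either NS (normal saline) or MSC-EVs, extracellular vesicles from human umbilical cord mesenchymal stem cells, by injection into the vitreous of both eyes at P14 and P21. WT mice received no injection and came from another supplier, so that in any comparison with WT the genotype, the injection and the source of the mice cannot be told apart. The vesicles came from another species. Each group held 3 libraries, with total estimated counts of 19491717 to 62532343, the deepest being MSC-EVs replicate 3. The labels do not say that the libraries came from separate animals, so the p-values measure only the spread among these libraries.

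The pigment epithelium is a single layer of pigmented cells that lies against the photoreceptor outer segments, recycles their retinoids and takes up their shed tips. It stays with the choroid when a neural retina is peeled away, and fragments of it can come along. Melanin is made inside melanosomes, both in this epithelium and in the neural crest melanocytes of the choroid, by the same enzymes: tyrosinase (Tyr) oxidises tyrosine, and dopachrome tautomerase (Dct) and Tyrp1 act on the later intermediates. Pmel forms the fibrils on which melanin is laid down, Mlana is a membrane protein of the melanosome, and Slc45a2 is a transporter needed for pigmentation. Mitf is the transcription factor that drives many of these genes. Ttr, the carrier of thyroxine and of the retinol-binding protein, is made by the pigment epithelium and the choroid plexus. Best1 is an anion channel of the basal membrane of the epithelium, and Slc6a13 is a GABA and taurine transporter found in the pigment epithelium and in the membranes that cover the brain.

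Mitf binds E-box sequences, of which CATGTG is the form commonly found ahead of melanin genes. Promoter windows from RefSeq (GRCm38.p6, 250 bases before to 50 after a gene start) were available for 6 of the 10 members, with 10 windows in all. CATGTG, read on either strand, was present in 4 of these windows, 1 each for Tyr, Tyrp1, Dct and Slc6a13, and in 14.2% of the 32851 windows of the same length over all genes. The windows of Mitf and Best1 held neither CATGTG nor CACGTG, which occurred in 7.15% of all windows. A match is a description of these letters and not of binding. The 4 windows are shown because 3 of them belong to the melanin enzymes that differed most between groups, and the remaining one to Slc6a13. They are written 5′ to 3′ on the strand of the gene, with capitals marking CATGTG or its reverse complement CACATG. The Tyr window lies at chr7:87493463-87493762 on the minus strand, with the motif 21 bases before the start, and the Tyrp1 window at chr4:80833963-80834262 on the plus strand, with the motif 46 bases before it. The Dct window spans chr14:118052197-118052496 on the minus strand and the Slc6a13 window chr6:121300038-121300337 on the plus strand, each with 2 copies.
Tyr: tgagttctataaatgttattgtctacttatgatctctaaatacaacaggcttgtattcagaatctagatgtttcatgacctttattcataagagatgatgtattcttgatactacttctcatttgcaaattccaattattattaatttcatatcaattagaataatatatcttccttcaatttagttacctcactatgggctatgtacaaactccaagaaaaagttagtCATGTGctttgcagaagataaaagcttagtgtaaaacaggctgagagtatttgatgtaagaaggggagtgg
Tyrp1: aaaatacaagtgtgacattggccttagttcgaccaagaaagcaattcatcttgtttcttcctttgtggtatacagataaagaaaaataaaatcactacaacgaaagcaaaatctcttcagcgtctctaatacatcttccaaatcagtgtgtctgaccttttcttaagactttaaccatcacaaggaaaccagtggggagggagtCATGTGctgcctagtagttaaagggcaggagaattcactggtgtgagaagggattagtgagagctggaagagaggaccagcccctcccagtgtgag
Dct: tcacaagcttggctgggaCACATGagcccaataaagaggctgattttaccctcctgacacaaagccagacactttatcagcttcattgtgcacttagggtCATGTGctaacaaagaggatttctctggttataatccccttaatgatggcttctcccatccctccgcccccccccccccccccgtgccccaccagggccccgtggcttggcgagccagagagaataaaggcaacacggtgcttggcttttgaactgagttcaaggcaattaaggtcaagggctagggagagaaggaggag
Slc6a13: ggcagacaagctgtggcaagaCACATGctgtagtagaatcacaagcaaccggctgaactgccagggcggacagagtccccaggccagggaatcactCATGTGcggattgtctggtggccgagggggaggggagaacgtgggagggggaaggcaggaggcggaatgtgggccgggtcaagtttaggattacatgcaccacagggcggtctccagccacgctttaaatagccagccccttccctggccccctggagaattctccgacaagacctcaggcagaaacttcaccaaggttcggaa

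The label of pigment epithelium was first checked against defining markers of that tissue, which are no members. Rpe65, the retinoid isomerase of the epithelium, was found in every library, with 68 to 1391 counts, although the tissue is labelled as retina. The 5 genes listed for the neural crest melanocyte were uneven. Sox10 had 1 to 49 counts, and Pax3 had 1 count in NS replicate 1 and 0 in the other 8 libraries, where a count of 0 allows up to 3. Kit, Ednrb and Mc1r were present in every library, with 203 to 965, 187 to 1454 and 46 to 198 counts, and the list summed to 26.9 to 41.2 CPM. None of these values says which cell made the melanin transcripts in these libraries.

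Tyr, Tyrp1 and Dct, the melanin enzymes, were all higher in the NS-treated rd10 retina than in WT. Dct, the most abundant of them, had 5.20, 8.46 and 10.5 CPM (counts scaled to library size with the TMM factors of edgeR) in the WT libraries and 65.6, 17.0 and 42.8 in the NS-treated libraries. All 3 NS-treated libraries lay above all WT libraries, but NS replicate 2 stood nearer to WT than to NS replicate 1. In the MSC-EVs-treated libraries Dct had 14.7, 19.2 and 27.8 CPM, again above every WT library and overlapping the NS-treated range. The group means were 8.04 ± 2.65 CPM in WT, 41.8 ± 24.3 in NS-treated and 20.5 ± 6.68 in MSC-EVs-treated retina (SD, n = 3 each). The log2 fold change of NS-treated against WT was 2.40 ± 0.64 (standard error), with an adjusted p of 0.031 in edgeR's quasi-likelihood test. A gene was called differentially expressed when its adjusted p was under 0.05 and its level differed by at least 1 on the log2 scale, p-values being adjusted over all genes tested.

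Tyrp1 behaved as Dct did. It had 2.38, 3.40 and 5.10 CPM in WT, 24.6, 5.93 and 15.5 in NS-treated and 4.01, 5.85 and 9.37 in MSC-EVs-treated libraries. The NS-treated libraries lay above WT in each case, while MSC-EVs replicate 1 fell within the WT range. Against WT, the log2 fold change was 2.11 ± 0.65 in NS-treated retina (edgeR adjusted p = 0.0431) and 0.86 ± 0.37 in MSC-EVs-treated retina (edgeR adjusted p = 0.0879).

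Tyr, the first enzyme of the pathway, was scarcer. Its values were 0.852, 1.97 and 1.45 CPM in WT, 8.65, 2.16 and 5.72 in NS-treated and 2.59, 2.65 and 4.62 in MSC-EVs-treated libraries. Both rd10 groups lay above WT without overlap, though NS replicate 2 exceeded WT replicate 2 only slightly, with 44 counts in either library. The log2 fold change was 1.97 ± 0.55 for NS-treated against WT (edgeR adjusted p = 0.0193) and 1.24 ± 0.34 for MSC-EVs-treated against WT (edgeR adjusted p = 0.0124).

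The calls of the melanin enzymes in NS-treated retina depended on single libraries and settings. When each of the 6 libraries was left out in turn, Dct and Tyrp1 passed only without NS replicate 2, with log2 fold changes between 1.89 and 2.77 for Dct and between 1.56 and 2.49 for Tyrp1. Tyr failed without WT replicate 1, WT replicate 3 or NS replicate 3, at adjusted p-values of 0.0674, 0.0769 and 0.0588 in edgeR. A replicate block ended all 3 calls, at adjusted p-values of 0.106 for Tyr and 0.117 for Tyrp1 and Dct in edgeR, and testing without a filter on low counts ended those of Tyr and Tyrp1 (edgeR adjusted p = 0.0519 and 0.0626). No omission turned the direction of any of the 3 enzymes.

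Pmel, Mlana and Slc45a2, the members of the melanosome other than the enzymes, were not called against WT in edgeR's quasi-likelihood test. Pmel, the fibril protein, had 2.78, 4.57 and 6.66 CPM in WT, 23.4, 6.91 and 12.8 in NS-treated and 3.76, 3.76 and 7.07 in MSC-EVs-treated libraries. NS-treated libraries were above WT in all 3 cases, by a log2 fold change of 1.65 ± 0.59 that missed the threshold (edgeR adjusted p = 0.0633). DESeq2 and the exact test of edgeR did call Pmel, at adjusted p-values of 0.013 and 0.00992, within a range of 0.00992 to 0.192 over 16 alternative settings. The MSC-EVs-treated libraries overlapped WT, with a log2 fold change of 0.10 ± 0.37. At the gene's locus, chr10:128704195-128720238 on the plus strand, Cdk2 and Dgka overlap it on the opposite strand. Of its 50-base exonic stretches, 2.5% are shared with 1 other gene. Strand was not stated for the counting, so reads from Cdk2 and Dgka cannot be fully separated there.

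Mlana and Slc45a2 had few counts. Mlana had 2, 14 and 11 counts in WT, 67, 11 and 18 in NS-treated and 11, 4 and 32 in MSC-EVs-treated libraries, of which NS replicate 1 alone stood out. Its NS-treated and WT libraries overlapped (edgeR adjusted p = 0.064). Slc45a2 had 10, 14 and 6 counts in WT, 35, 16 and 15 in NS-treated and 8, 11 and 21 in MSC-EVs-treated libraries. After scaling for depth, its NS-treated libraries lay above both other groups, at 0.686 to 1.18 CPM against 0.300 to 0.627 in WT. The difference from WT was 0.95 ± 0.40 on the log2 scale (edgeR adjusted p = 0.0531). Slc45a2 failed the filter on low counts in the comparison of MSC-EVs-treated with WT retina and was not tested there.

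Mitf, the transcription factor, varied least. It was measured at 6.50, 6.36 and 6.81 CPM in WT, 8.82, 7.69 and 7.19 in NS-treated and 7.31, 6.06 and 7.34 in MSC-EVs-treated libraries. The NS-treated values all lay above WT, by a log2 fold change of 0.27 ± 0.13 that did not pass (edgeR adjusted p = 0.0927). Its highest library exceeded its lowest by 1.46-fold, against 12.6-fold for Dct. Mitf has 8 annotated transcripts from several starts between 97807052 and 98021349 on chromosome 6, and the gene-level counts do not separate them.

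Ttr was the most abundant member by far but was not called in any comparison. It had 21.9, 39.3 and 36.7 CPM in WT, 120.0, 30.5 and 88.1 in NS-treated and 46.8, 33.8 and 117.0 in MSC-EVs-treated libraries. NS replicate 2 fell inside the WT range, and MSC-EVs replicate 3 was as high as NS replicate 1. The log2 fold change against WT was 1.29 ± 0.61 in NS-treated retina (edgeR adjusted p = 0.135) and 1.04 ± 0.58 in MSC-EVs-treated retina (edgeR adjusted p = 0.197). Without NS replicate 2, the first of these became 1.68 at an adjusted p of 0.0206 in edgeR, the lowest of 16 alternative settings that reached up to 0.342.

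Best1, the anion channel, had 3, 6 and 15 counts in WT, 27, 24 and 17 in NS-treated and 18, 13 and 48 in MSC-EVs-treated libraries. On the CPM scale, WT replicate 3 reached 0.751 and the lowest NS-treated library 0.778, so the groups were separated by a narrow gap. It was called higher in NS-treated retina, by 1.33 ± 0.49 on the log2 scale (edgeR adjusted p = 0.0332). The call was lost without WT replicate 1, WT replicate 2, NS replicate 1 or NS replicate 2, at adjusted p-values of 0.0541 to 0.13 in edgeR. In MSC-EVs-treated retina the log2 fold change was 0.88 ± 0.52 (edgeR adjusted p = 0.173), which without WT replicate 3 became 1.76 and passed (edgeR adjusted p = 0.0267).

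Slc6a13 had 1.93, 2.42 and 2.05 CPM in WT, 8.99, 5.88 and 3.98 in NS-treated and 1.80, 4.40 and 2.5 in MSC-EVs-treated libraries. Every NS-treated library exceeded every WT library, NS replicate 2 included. The log2 fold change was 1.57 ± 0.29 (edgeR adjusted p = 0.00072). This call passed in all 16 alternative settings, among them the omission of each of the 6 libraries, with log2 fold changes of 1.02 to 1.81. Against WT, the MSC-EVs-treated libraries overlapped, and the log2 fold change was 0.44 ± 0.32 (edgeR adjusted p = 0.269).

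**Figure D1:**
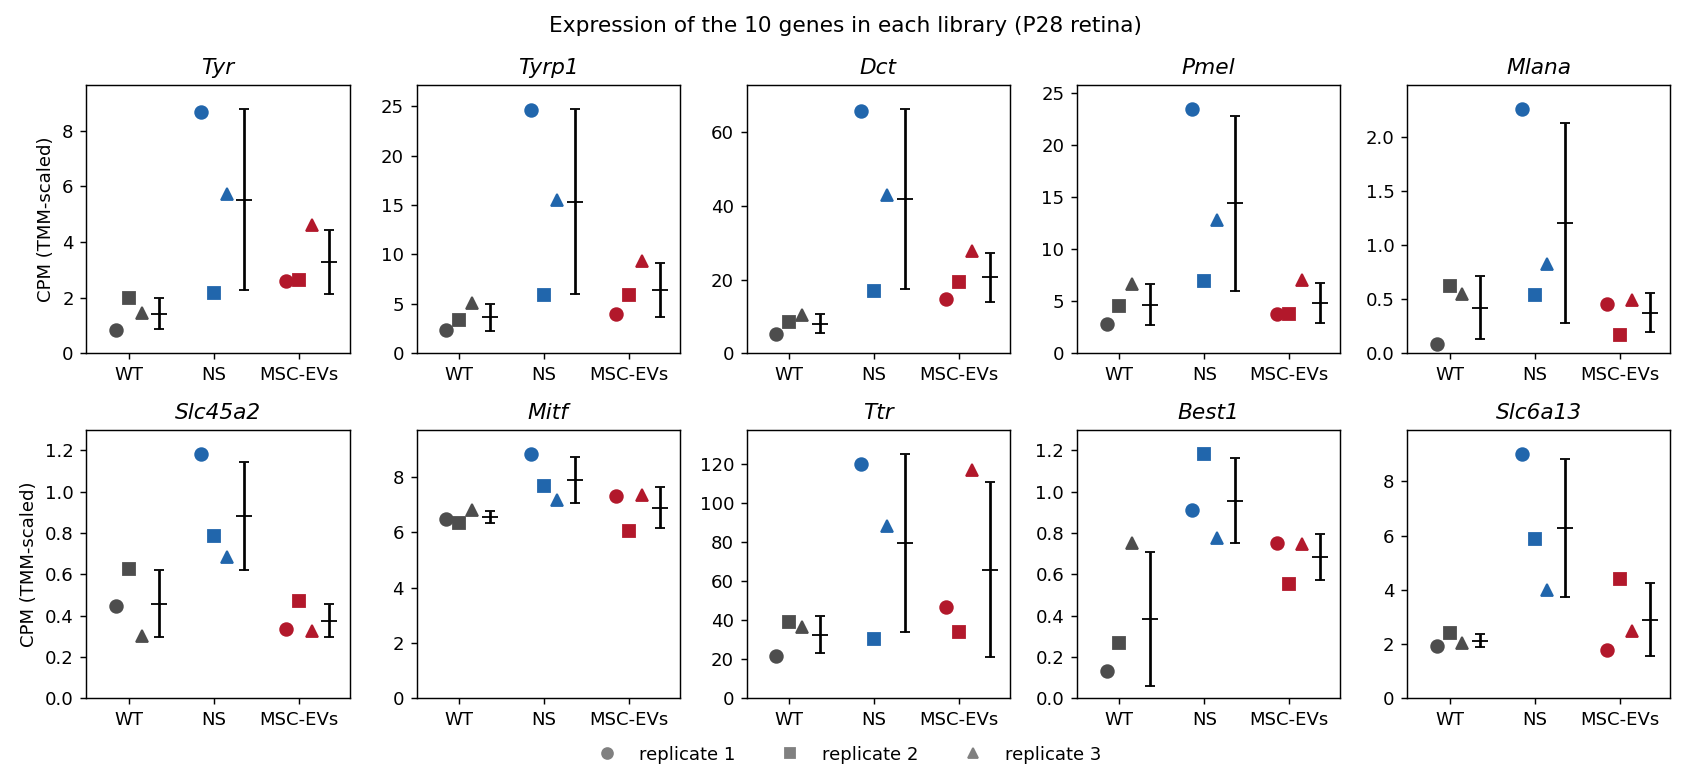
Expression of each of the 10 genes in the 9 libraries, in CPM scaled by TMM factors. Points are single libraries, with the shape giving the replicate number, and bars give the mean ± SD of the 3 libraries of a group. NS replicates 1 and 3 and MSC-EVs replicate 3 stand highest for Tyr, Tyrp1, Dct, Pmel and Ttr, whereas NS replicate 2 is the lowest NS-treated library for these genes but not for Slc6a13 or Best1.

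Counted together, 5 of the 10 members were called higher and 0 lower in NS-treated against WT retina (Tyr, Tyrp1, Dct, Best1 and Slc6a13). Of all 14644 genes tested in that comparison, 9.16% were called higher and 3.56% lower. The NS-treated libraries lay wholly above WT for 8 members, while 33.7% of all genes did so. The median log2 fold change was 1.57 over the 10 members and 0.01 over all genes tested. The fit did not call Pmel, Mlana, Slc45a2, Mitf and Ttr, all with values above 0.

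In MSC-EVs-treated against WT retina, 2 of the 9 members tested were called higher, Tyr and Dct, and 0 lower. The shares over all 14623 genes were 9.0% higher and 3.20% lower. Both lay wholly above WT, as did 31.9% of all genes. The median was 0.86 over the 9 members. The Tyr call was lost without WT replicate 1 or MSC-EVs replicate 3, when its log2 fold change dropped to 0.96 and 0.88, and the Dct call without MSC-EVs replicate 2 (edgeR adjusted p = 0.0556). With all 9 libraries in one fit neither was called (edgeR adjusted p = 0.0718 and 0.0713), and limma on log2(FPKM + 1) called Dct but not Tyr. This comparison shares its WT libraries with the preceding one.

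Between the treated rd10 groups, edgeR called 0 of the 10 members. All 10 log2 fold changes of MSC-EVs-treated against NS-treated retina were below 0, from -0.19 for Mitf to -1.63 for Mlana, with a median of -1.07. Dct was at -1.01 ± 0.55, Tyrp1 at -1.23 ± 0.59 and Tyr at -0.72 ± 0.50. The unadjusted p was under 0.05 for 4 members, Pmel, Mlana, Slc45a2 and Slc6a13, whose adjusted p-values in edgeR were 0.193, 0.17, 0.114 and 0.174. DESeq2 called 1 member, Slc6a13, and the exact test of edgeR and limma each called 0. Over all 14765 genes, 0.0610% were called in either direction. The MSC-EVs-treated libraries lay wholly below the NS-treated ones for Mlana, Slc45a2 and Best1, 3 of 10 members, against 13.5% of all genes. Ttr had the smallest difference after Mitf, at -0.25 ± 0.70, and its sign turned when NS replicate 1 or MSC-EVs replicate 2 was left out, to 0.18 and 0.07. The members called in NS-treated but not in MSC-EVs-treated retina, Tyrp1, Best1 and Slc6a13, are therefore not shown to differ between the treatments, and with standard errors of this size a lower level after MSC-EVs is not shown to be absent either.

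**Figure D2:**
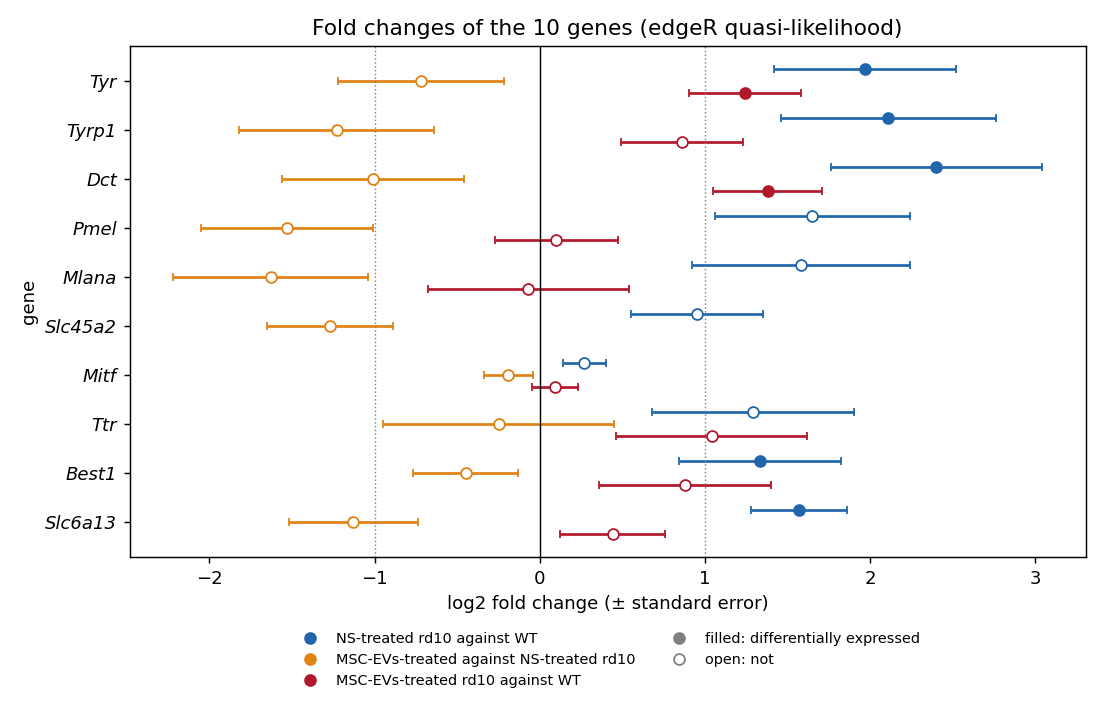
Log2 fold changes of the 10 genes in the 3 comparisons, with bars giving the standard error from edgeR. Filled points are differentially expressed (adjusted p under 0.05 and at least 1 on the log2 scale, the dotted lines). The filled points are Tyr, Tyrp1, Dct, Best1 and Slc6a13 for NS-treated against WT and Tyr and Dct for MSC-EVs-treated against WT, and none is filled between the treatments. Slc45a2 has no value in the last comparison.

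The members were ranked within each group on the FPKM scale, which divides by transcript length. In WT retina Ttr led at 25.5 ± 7.40 FPKM, above every other member in all 3 libraries. Dct followed at 3.38, then Pmel at 2.11, Mitf at 1.66 and Tyrp1 at 1.5, whose ranges overlapped from each to the next. Slc6a13 stood apart below them at 0.883. Mlana at 0.437, Tyr at 0.217, Best1 at 0.170 and Slc45a2 at 0.143 overlapped in turn. In NS-treated retina Ttr at 69.9 and Dct at 19.8 again led, but every member's range overlapped that of its neighbour in the order. In MSC-EVs-treated retina the order was Ttr at 57.4, Dct at 9.64 and Tyrp1 at 2.78 FPKM, each of the first 2 separated from the next. Mitf stood above Tyrp1 in WT and below Tyrp1 and Slc6a13 in NS-treated retina, in each case with overlapping neighbours.

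Within the groups, the members did not vary independently. The deviation of each library from its group mean on the log2(CPM + 1) scale was compared between genes over the 9 libraries, as a description. Dct and Tyrp1 had a Pearson r of 0.992, Dct and Pmel 0.962, Dct and Tyr 0.953, and Dct and Ttr 0.889. Over the 10 pairs among Tyr, Tyrp1, Dct, Pmel and Ttr, r ran from 0.878 to 0.992. Without the 2 libraries farthest from the median of Dct, NS replicates 1 and 2, these 4 values were 0.977, 0.924, 0.845 and 0.787. Mlana shared the course in part, with an r of 0.756 to 0.874 with these 5 genes. Dct had an r of 0.0539 with Best1, 0.277 with Slc45a2, 0.302 with Slc6a13 and 0.35 with Mitf. Slc45a2 was closer to Slc6a13, at 0.77, or 0.543 without NS replicate 1 and MSC-EVs replicate 2. The points share their libraries and depths, and the deviations of a group sum to 0.

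The libraries highest in Tyr, Tyrp1, Dct, Pmel and Ttr were also the highest in some retinoid genes of the pigment epithelium list. Rpe65, Rdh5 and Lrat were named for this purpose after their values were seen. Other retinoid genes of that list had another order. Rlbp1, which Müller glia also make, was highest in NS replicate 2 at 578 CPM and lowest in MSC-EVs replicate 3 at 333 CPM. Rrh was lowest in MSC-EVs replicate 3 at 20.8 CPM, and Rdh10 was highest in MSC-EVs replicate 1 at 114 CPM. Rpe65 had 6.01, 11.6 and 7.51 CPM in WT, 19.6, 3.33 and 13.9 in NS-treated and 7.52, 5.93 and 21.6 in MSC-EVs-treated libraries. NS replicates 1 and 3 and MSC-EVs replicate 3 were thus the highest libraries, and NS replicate 2 was the lowest of all 9. By deviations, r was 0.98 between Ttr and Rpe65 and 0.875 between Dct and Rpe65, or 0.959 and 0.702 without the 2 libraries farthest from the median of Ttr and of Dct. Rpe65, Rdh5 and Lrat were not called in any comparison. In NS-treated against WT retina, their log2 fold changes were 0.57 ± 0.70, 0.84 ± 0.60 and 1.15 ± 0.52 (edgeR adjusted p = 0.524, 0.279 and 0.108). The part of pigment epithelium content in the differences of the melanin genes was not tested.

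**Figure D3:**
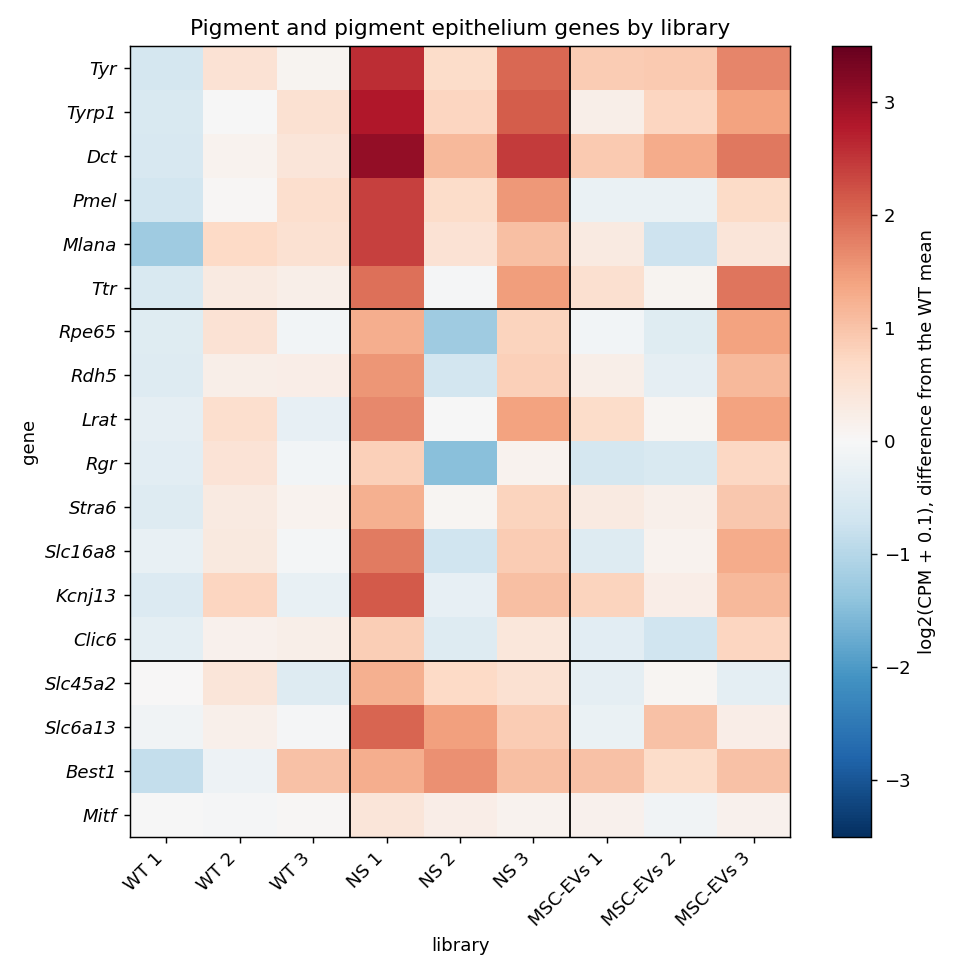
Level of each gene in each library relative to the WT mean, as the difference in log2(CPM + 0.1). The upper block holds Tyr, Tyrp1, Dct, Pmel, Mlana and Ttr, and the lower block the other members. The middle block holds a chosen part of the pigment epithelium list, from Rpe65 to Clic6. NS replicates 1 and 3 and MSC-EVs replicate 3 are high in both upper blocks, except that Mlana in MSC-EVs replicate 3 lies within the WT range. NS replicate 2 is near or below the WT mean in the middle block, while every member but Mlana and Ttr stays above all WT libraries in NS replicate 2. Listed genes not shown include Rlbp1, which was highest in NS replicate 2 and lowest in MSC-EVs replicate 3.

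The members were also expressed as ratios to Rpe65 within each library, which were chosen after the values were seen. Dct had 0.866, 0.727 and 1.39 counts per Rpe65 count in WT, 3.34, 5.10 and 3.08 in NS-treated and 1.95, 3.23 and 1.29 in MSC-EVs-treated libraries. NS replicate 2, with the least Rpe65, had the highest ratio. The NS-treated and WT ratios did not overlap, differing by 1.97 on the log2 scale. A two-sided exact permutation test gave p = 0.1, the smallest that 3 against 3 libraries allow, and 0.15 after Benjamini-Hochberg adjustment over the 24 ratio comparisons made. Ttr per Rpe65 was 3.38 to 4.89 in WT, 6.11 to 9.15 in NS-treated and 5.43 to 6.22 in MSC-EVs-treated libraries. Both rd10 groups were above WT without overlap (exact permutation p = 0.1 for each, adjusted 0.15).

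Ratios among the members were taken in the same way. Tyrp1 per Dct was 0.402 to 0.488 in WT, 0.349 to 0.376 in NS-treated and 0.274 to 0.337 in MSC-EVs-treated libraries, without overlap among the 3 groups. Its log2 difference was -0.31 for NS-treated against WT and -0.25 for MSC-EVs-treated against NS-treated retina (exact permutation p = 0.1 and adjusted 0.15 for each). Pmel per Dct was 0.534 to 0.636 in WT, 0.298 to 0.406 in NS-treated and 0.196 to 0.256 in MSC-EVs-treated libraries, and did not overlap either. The log2 difference in Pmel per Dct was -0.70 for NS-treated against WT and -0.59 for MSC-EVs-treated against NS-treated retina (exact permutation p = 0.1 and adjusted 0.15 for each). Ttr per Dct was 3.51 to 4.65 in WT and 1.79 to 2.06 in NS-treated libraries, a log2 difference of -1.12 with the same p-values, and spread from 1.76 to 4.22 in MSC-EVs-treated libraries. No such ratio can pass 0.05 with 3 libraries against 3.

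**Figure D4:**
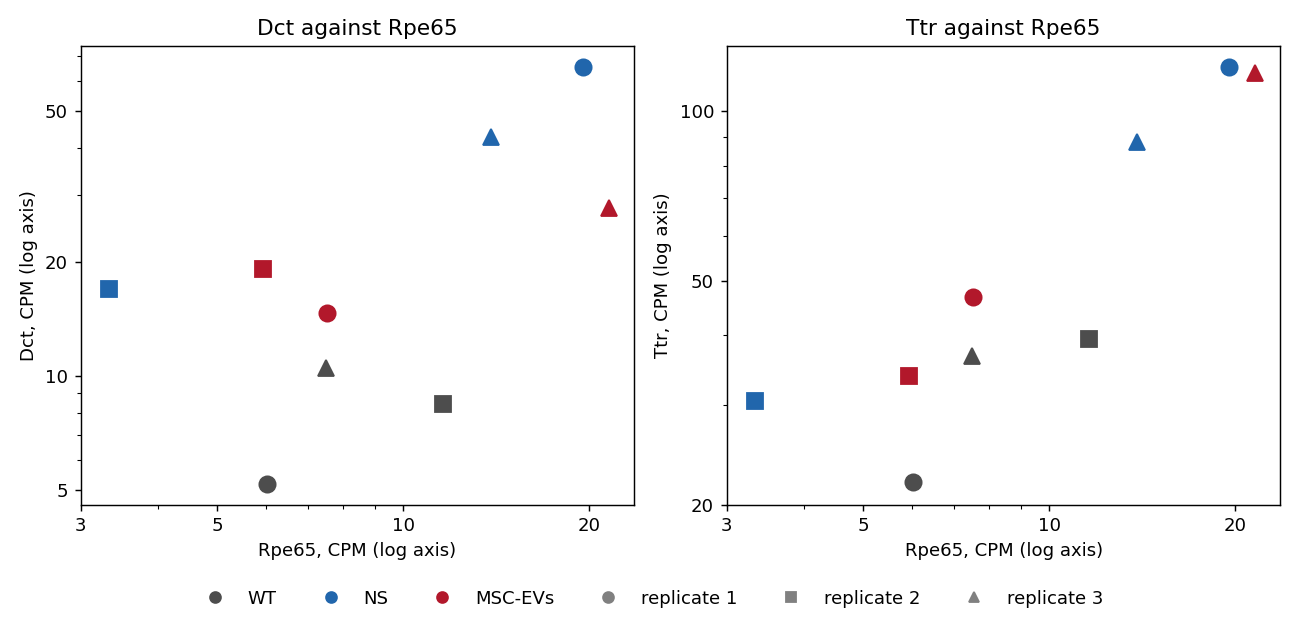
Dct (left) and Ttr (right) against Rpe65 in the 9 libraries, in CPM on log axes, with colour giving the group and shape the replicate number. Each NS-treated library lies above the WT libraries in Dct, including NS replicate 2, which has the lowest Rpe65 of all. By deviations from group means, Ttr follows Rpe65 more closely than Dct does. Ttr is lowest in WT replicate 1, at 21.9 CPM, and highest in NS replicate 1 and MSC-EVs replicate 3. NS replicate 2, with Ttr at 30.5 CPM, has the highest Ttr count per Rpe65 count, 9.15.

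The genes most like the members were sought among 13817 genes with a mean of at least 1 CPM, by the same deviations over 9 libraries. The mean course of the 6 melanin genes (Tyr, Tyrp1, Dct, Pmel, Mlana and Slc45a2) was matched best by Mfrp, a membrane protein of the pigment epithelium and ciliary epithelium, with an r of 0.986. Mark2, Hcls1, Prr12, Hyou1, Vps13d, Ptgds and Myrf followed at 0.976 to 0.96. Among the retinoid genes, Rdh5 ranked 32 at 0.921 and Rpe65 ranked 89 at 0.87. Ttr was matched best by Thbs4 at 0.993, then by Clk2, Nmnat2, Clic6, Rdh5, Rpe65, Cited2 and Col8a2 at 0.99 to 0.978. Of these, Clic6, Rdh5, Rpe65 and Col8a2 were on the list of pigment epithelium genes. The leading 8 of the melanin genes and the leading 8 of Ttr shared 0 genes. Without subtracting group means, 2 of the first 8 and 1 of the second remained, so the neighbours depend on that step.

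Slc6a13 followed a different set of libraries, with NS replicate 1, NS replicate 2 and MSC-EVs replicate 2 highest. Slc13a4, a sulphate transporter listed with the perivascular and meningeal fibroblast genes and set beside it after the values were seen, had 3.23, 3.36 and 3.80 CPM in WT, 10.8, 9.95 and 7.19 in NS-treated and 4.56, 9.43 and 6.51 in MSC-EVs-treated libraries. The order was the same within both rd10 groups, and r of the deviations was 0.907, or 0.857 without NS replicate 1 and MSC-EVs replicate 2. With Dct, the value for Slc6a13 was 0.302, and -0.032 without those same libraries. Other genes of the fibroblast list were mixed. NS replicate 2 was the lowest NS-treated library for Igf2 and Slc22a8, at 43.2 and 3.28 CPM, but the highest for Col1a2, at 18.5 CPM. In NS-treated against WT retina 4 of the 8 tested genes of the fibroblast list were called higher and 0 lower, against 9.16% and 3.56% of all genes tested. The 4 called genes were Ogn, Col1a2 and Col3a1, which encode matrix proteins, and Slc13a4. Their log2 fold changes were 1.69, 1.64, 1.45 and 1.43 (edgeR adjusted p = 0.000781, 5.69e-06, 0.000294 and 2.31e-05). The list's median was 1.44, against 0.01 over all genes, and its summed level was 59.0 to 62.9 CPM in WT, 88.6 to 108 in NS-treated and 69.9 to 90.4 in MSC-EVs-treated libraries. The part of such cells in the Slc6a13 difference was not tested.

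Other genes of pigment cells moved in both directions. Of 17 tested melanosome and melanocyte genes beside the members, 4 were called higher and 1 lower in NS-treated retina, with a median of 0.33. The shares over all genes tested were 9.16% higher and 3.56% lower. Oca2, a melanosome channel protein, rose by 2.0 ± 0.52 (edgeR adjusted p = 0.00786) and Mlph, which links melanosomes to their motor, by 1.68 ± 0.54 (edgeR adjusted p = 0.0191) on the log2 scale. Both had few counts. Oca2 had 6 to 26 in WT and 26 to 111 in NS-treated libraries, and Mlph 7 to 12 and 14 to 69. Gpnmb, a close relative of Pmel that macrophages and microglia also make, rose by 4.75 ± 0.31 (edgeR adjusted p = 0.00012), and its r with the melanin genes was 0.549. Mc1r, the melanocortin receptor, fell by 1.33 on the log2 scale (edgeR adjusted p = 5.45e-05). In MSC-EVs-treated against WT retina 3 rose and 1 fell, including Mlph at 1.41 and Mc1r at -1.55, while Oca2 was at 1.23 (edgeR adjusted p = 0.082). Of all genes tested in that comparison, 9.0% were called higher and 3.20% lower.

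Of the 20 tested pigment epithelium genes beside the members, 3 were called higher and 1 lower in NS-treated retina, with a median of 0.55, and 3 and 1 in MSC-EVs-treated retina, with a median of 0.49. Of all genes tested, 9.16% were called higher and 3.56% lower in NS-treated retina, and 9.0% and 3.20% in MSC-EVs-treated retina. Serpinf1, which encodes a neurotrophic secreted factor, Krt8, a keratin, and Mertk, the receptor for shed outer segments that macrophages also carry, had log2 fold changes of 1.61, 1.43 and 1.14 in NS-treated retina. Krt8 had only 13 to 15 counts in the WT libraries and 16 to 72 in the NS-treated ones. Aqp1, a water channel, was at -1.87. None of these 4 is restricted to the epithelium. The summed level of this list was 1010 to 1070 CPM in WT, 1170 to 1190 in NS-treated and 914 to 1040 in MSC-EVs-treated libraries. Most of that sum came from Rlbp1, Otx2 and Aqp1, at 375, 225 and 131 CPM on average in WT, which other retinal cells also make, so that it does not measure the content of epithelium. The 6 melanin genes summed to 11.8 to 24.5 CPM in WT, 33.3 to 126.0 in NS-treated and 25.8 to 49.7 in MSC-EVs-treated libraries. Among the ciliary body and iris genes, 1 of 6 was called higher in NS-treated retina, Otx1 at 2.6, and 2 in MSC-EVs-treated retina, Otx1 at 1.94 and Bmp4 at 1.04. The shares called higher over all genes tested were 9.16% and 9.0%. Otx1 had only 2 to 5 counts in the WT libraries. The summed level of the ciliary body and iris list was 110.0 to 111 CPM in WT, 190.0 to 201 in NS-treated and 183 to 214 in MSC-EVs-treated libraries. Most of it came from Tgfb2, which had a mean of 92.9 CPM in WT and 165 in NS-treated retina and is not particular to that tissue. No gene of any list was called between the treatments.

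The higher levels of Tyr, Tyrp1 and Dct in NS-treated retina went with lower levels of rod transcripts. Of 14 neural retina genes, 5 were called lower in NS-treated retina and 0 higher, against 3.56% and 9.16% of all genes tested. Pde6b was at -2.23, Gnat1 at -2.13 and Crx at -1.18 on the log2 scale. In whole tissue, fewer rods and less RNA per rod cannot be told apart, and a retina with less rod RNA gives every other cell a larger share of the reads. The part of this shift in the members' differences was not tested.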

How the data were processed

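Retinal poly(A) RNA-seq of 9 libraries was analysed from the table that the authors deposited, which holds estimated counts and FPKM values per gene and library. Per the labels, fastp, Bowtie2, HISAT2, StringTie 1.3.1 and RSEM were used. Genome build and annotation release are not given in the sources used here. Of the 22337 gene identifiers, 22283 were found in GENCODE M21 (GRCm38), from which coordinates were taken. The deposited counts were rounded to whole numbers. The FPKM values, normalised by the authors for length and depth, served for levels and alternatives.

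Each comparison was fitted on its 6 libraries over all genes in R 4.3.3 with edgeR 4.0.16 (filterByExpr, TMM, robust glmQLFit, quasi-likelihood F test), with Benjamini-Hochberg adjustment over all genes tested. The code was tested on simulated data. DESeq2 1.42.0, edgeR's exact test, limma 3.58.1 on log2(FPKM + 1) and log2(FPKM + 0.1), other size factors and filters (at least 10 counts in each library, or no filter), all 9 libraries in one fit, a replicate block and the omission of each library were alternatives. CPM values used TMM-scaled library sizes. Count values carry the counting error of totals of 19491717 to 62532343 per library, and replicates differed by more than that error.

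Genes named in the text were the 10 members, the called genes of 8 marker lists (where more than 4, the 4 with the largest change) and the 8 genes most like the melanin genes and Ttr. The members and the lists were chosen with earlier results of these data known. The lists covered melanosome, pigment epithelium, neural crest melanocyte, ciliary body and iris, fibroblast, lens, cornea and conjunctiva, and neural retina genes. Replicate numbers were not treated as pairs, since the labels tie them to nothing shared. Some genes of the lists are not reported here.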

Additional observations from a re-analysis of the deposited data

How the results depend on the processing

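Against the 5 members called in NS-treated versus WT retina, 3 were called with no filter and 2 with a replicate block (Best1 and Slc6a13), and 1 to 7 when a library was left out. For MSC-EVs-treated versus NS-treated retina the count of 0 members became 1 with DESeq2 and stayed at 0 without any single library. For MSC-EVs-treated versus WT retina the count of 2 became 1 with limma on log2(FPKM + 1) and 0 with all 9 libraries in one fit, and was 1 to 3 without single libraries. Over all genes, 1863 were called in NS-treated versus WT retina, 985 with limma on log2(FPKM + 1) and 1883 to 1964 without single libraries. MSC-EVs-treated versus WT retina gave 1784, 1002 with limma and 1704 to 2108 without single libraries. Between the treatments 9 genes were called, 33 with DESeq2, 48 with the exact test, 38 with all 9 libraries, 21 with the replicate block and 0 to 82 without single libraries (0 without NS replicate 3 or MSC-EVs replicate 1). The cause of these shifts was not tested. The directions of 3 values turned, none of a called gene. Ttr between the treatments, at -0.25, was -0.98 to 0.18 without single libraries, turning without NS replicate 1 (0.18) and MSC-EVs replicate 2 (0.07). Pmel in MSC-EVs-treated versus WT retina, at 0.10, was -0.30 to 0.43, turning without WT replicate 1 (-0.17) and MSC-EVs replicate 3 (-0.30). Mlana in that comparison, at -0.07, was 0.00 and 0.09 with limma at pseudocounts of 1 and 0.1, and -0.57 to 0.34 without single libraries, with 0.34, 0.14 and 0.20 without WT replicate 2, WT replicate 3 and MSC-EVs replicate 2. Deviations of same-numbered libraries correlated at 0.087 to 0.28 between the rd10 groups and at -0.078 to 0.087 between WT and rd10. Differently numbered rd10 libraries correlated at -0.231 to -0.011. The deviations of a group sum to 0, so these ranges are not independent. Rd10 mice of the treatments were littermates, but the labels do not tie the replicate numbers to litters. The numbers were therefore not taken as pairs in the main fit, and whether they mark pairs is not known. Depth limits Mlana, Slc45a2 and Best1, which had as few as 2, 6 and 3 counts in a library.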

Other observations

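Markers of tissues that lie near the retina were also read. The lens genes summed to 2.90 to 8.33 CPM in WT and 5.81 to 6.91 in NS-treated libraries. The 4 genes of cornea and conjunctiva summed to 0.2 to 1.21 CPM over the 9 libraries, and 0 passed the filter on low counts in NS-treated against WT retina. Of the 5 neural crest melanocyte genes, 3 were tested there, with 1 called higher (Ednrb, at 1.09) and 1 lower (Mc1r, at -1.33). Of all genes tested in that comparison, 9.16% were called higher and 3.56% lower. Ednrb is also a gene of retinal glia.

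Rpe65 was lowest of all 9 libraries in NS replicate 2, at 3.33 CPM. Every member but Mlana and Ttr stood above all WT libraries there, among them Dct, Slc6a13 and Best1 at 17.0, 5.88 and 1.18 CPM. Tyr and Pmel did so only slightly, at 2.16 and 6.91 CPM against at most 1.97 and 6.66 in WT. In MSC-EVs replicate 3 Rpe65 was highest, at 21.6 CPM, while Dct was at 27.8 CPM, below NS replicates 1 and 3. These values were set side by side after they were seen, and their cause was not tested.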
